A study of Homo sapiens with 24 samples.

Results

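Aminoacyl-tRNA synthetase genes were followed through the 6 comparisons of a study of temozolomide resistance and METTL3 inhibition in glioma cells. The members were listed by name: 19 genes of cytosolic enzymes, among them both subunits of the phenylalanyl enzyme, FARSA and FARSB, and 16 genes of mitochondrial enzymes, whose symbols end in 2. All 35 were found in each of the 6 tables by Ensembl identifier and passed the filter on low values, of 34496 genes listed in at least 1 table.

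Each synthetase joins an amino acid to its tRNA, and the charged tRNAs feed the ribosome. The human cytosol and the mitochondrion use largely separate sets of these enzymes, all encoded in the nucleus, although KARS1 and GARS1 each give a cytosolic and a mitochondrial form. Several cytosolic enzymes are held in a multi-synthetase complex on the scaffold proteins AIMP1, AIMP2 and EEF1E1. When uncharged tRNA or another stress activates an eIF2α kinase, the transcription factor ATF4 accumulates and is known to induce many cytosolic synthetase genes together with genes of amino acid synthesis and transport. WARS1, the tryptophanyl enzyme, is in addition a known interferon-γ-inducible gene.

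The study measured mRNA in 24 libraries, 3 for each of 8 groups. U87 MG and LN229 are established human glioblastoma lines, and U87-R and LN229-R are their temozolomide-resistant derivatives. Each line received DMSO or 50 µM STM2457, an inhibitor of the m6A RNA methyltransferase METTL3, for 96 h. The medium of both resistant lines held 50 µM temozolomide in both arms, while the parental lines had none, so resistance and the presence of the alkylating drug cannot be told apart. The U87 lines grew in EMEM and were prepared with a TruSeq stranded kit, and the LN229 lines grew in DMEM with less serum and were prepared with a Watchmaker kit, so that kit, medium and cell background cannot be told apart either. Whether the 3 replicates of a group were grown apart is not given by the labels, and if they were not, the spread behind every p-value here is technical.

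Library totals of normalized counts lay between 21232924 and 25349361 in the U87 tables and between 24101385 and 28716587 in the LN229 tables. Of 8 glial and glioma markers, 5 were at a mean of 10 or more in every U87 table and 8 in every LN229 table; SOX2 and S100B were below it in the U87 lines. With STM2457, S100B and OLIG2 fell and CD44 rose in both LN229 lines (log2 changes of -1.99 and -1.94 for S100B), and in LN229 VIM, NES and SOX2 fell and EGFR rose as well. Of 4 leukocyte and microglial genes PTPRC, AIF1 and P2RY12 were below 10 in both families, and CSF1R was above it in the U87 tables, where it was lower in U87-R than in U87 MG (-0.79). The endothelial genes CDH5 and PECAM1 rose in LN229 (1.53 and 1.59) at no more than 72.5 normalized counts. The part of these marker changes in the results below was not tested. The labels of the LN229 lines conflict between tables. The 6 U87 control columns of the resistance table matched the like-named columns of the drug tables, as judged by the SD over genes of the log2 ratio between columns, 0.056 to 0.058. In the LN229 family all 6 control columns matched the same-numbered library of the other line instead, with an SD of 0.058 to 0.061, against 0.320 to 0.406 for the like-named library. The direction of the LN229 resistance comparison, and which LN229 line each drug effect belongs to, therefore depend on which table is named correctly. Only DMSO columns could be matched. If the controls of the drug tables were exchanged without their treated columns, each LN229 drug comparison would also hold the difference between the lines. That case was not tested. Every LN229 name here is the label of the table used. Replicate 2 of the STM2457 group stood apart in both LN229 drug tables, as described with WARS1 below.

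The promoters of some members carry the letters of a C/EBP-ATF response element, the composite site that ATF4 heterodimers bind. The letters TGATGNAA were searched on both strands of the RefSeq promoters of GRCh38.p14, which run from 250 bases before to 50 bases after a gene's start and held 30 of the 35 members. The letters occurred in 6 of 16 cytosolic promoters, in 1 of 14 mitochondrial promoters and in 3.62% of 35116 promoters. A match is a description of the letters and does not show binding. LARS1, VARS1, YARS1, AARS2 and VARS2 had no entry there and were not searched. The 7 sites are shown because they divide the 16 cytosolic members searched into those with and those without the letters in that window. Each is printed 5′ to 3′ on the strand of its gene within 30 bases, with the match in capitals.

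AARS1 (chr16:70289675-70289704, minus strand): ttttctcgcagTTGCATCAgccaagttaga
CARS1 (chr11:3057407-3057436, minus strand): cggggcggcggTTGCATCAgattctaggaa
IARS1 (chr9:92293692-92293721, minus strand): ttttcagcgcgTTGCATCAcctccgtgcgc
MARS1 (chr12:57488053-57488082, plus strand): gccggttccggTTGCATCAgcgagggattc
NARS1 (chr18:57621804-57621833, minus strand): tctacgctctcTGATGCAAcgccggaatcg
TARS1 (chr5:33440956-33440985, plus strand): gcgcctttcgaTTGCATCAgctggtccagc
YARS2 (chr12:32756076-32756105, minus strand): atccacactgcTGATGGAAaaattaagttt

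The 6 cytosolic sites held the same 8 letters on one strand or the other, and in CARS1, IARS1, MARS1, NARS1 and TARS1 the site lay within 21 bases of the start that the promoter table uses. For TARS1 that start lies 269 bases inside the gene's RefSeq span, and 4 of the 30 windows (CARS2, EARS2, FARS2 and TARS1) use such an inner start. The other letters searched on both strands were CACGTG, an E-box, in 1 cytosolic and 3 mitochondrial promoters (7.26% of all), the palindromic NRF1 site in 0 and 1 (1.24% of all), and CCGGAAGT, an ETS site, in 4 and 3 (4.14% of all). No TGATGNAA match overlapped a match to another of these letters.

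A gene was called changed where limma with a variance trend, fitted to log2 of the normalized count plus 1 within a table, gave a Benjamini-Hochberg adjusted p under 0.05 over all genes tested. A rise or fall below is such a call, and log2 changes are on that scale. STM2457 changed 21 of the 35 genes in LN229, 5 of them higher and 16 lower, where 49.7% of all genes were called (26.2% higher and 23.6% lower). In LN229-R it changed 17, 5 higher and 12 lower, where 38.6% of all genes were called (21.5% higher and 17.1% lower). The members' shares of 60.0% and 48.6% were thus somewhat above the background in both, and the excess lay among the falls. Treated and control libraries did not overlap for 26 members in LN229, where they did not for 60.6% of all genes, and for 21 in LN229-R (53.1% of all genes). In U87 MG 3 members were called, 1 higher and 2 lower, where 13.6% of all genes were (7.86% higher and 5.72% lower). In U87-R 3 were called, 2 higher and 1 lower, where 14.7% of all genes were (8.46% higher and 6.2% lower). Both are a share of 8.57%, below the background. Between the resistant and parental controls 3 members were called in LN229, all higher as labelled, where 9.25% of all genes were (5.6% higher and 3.65% lower), and 0 in U87, where 4.27% were (3.13% higher and 1.15% lower).

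**Figure D1:**
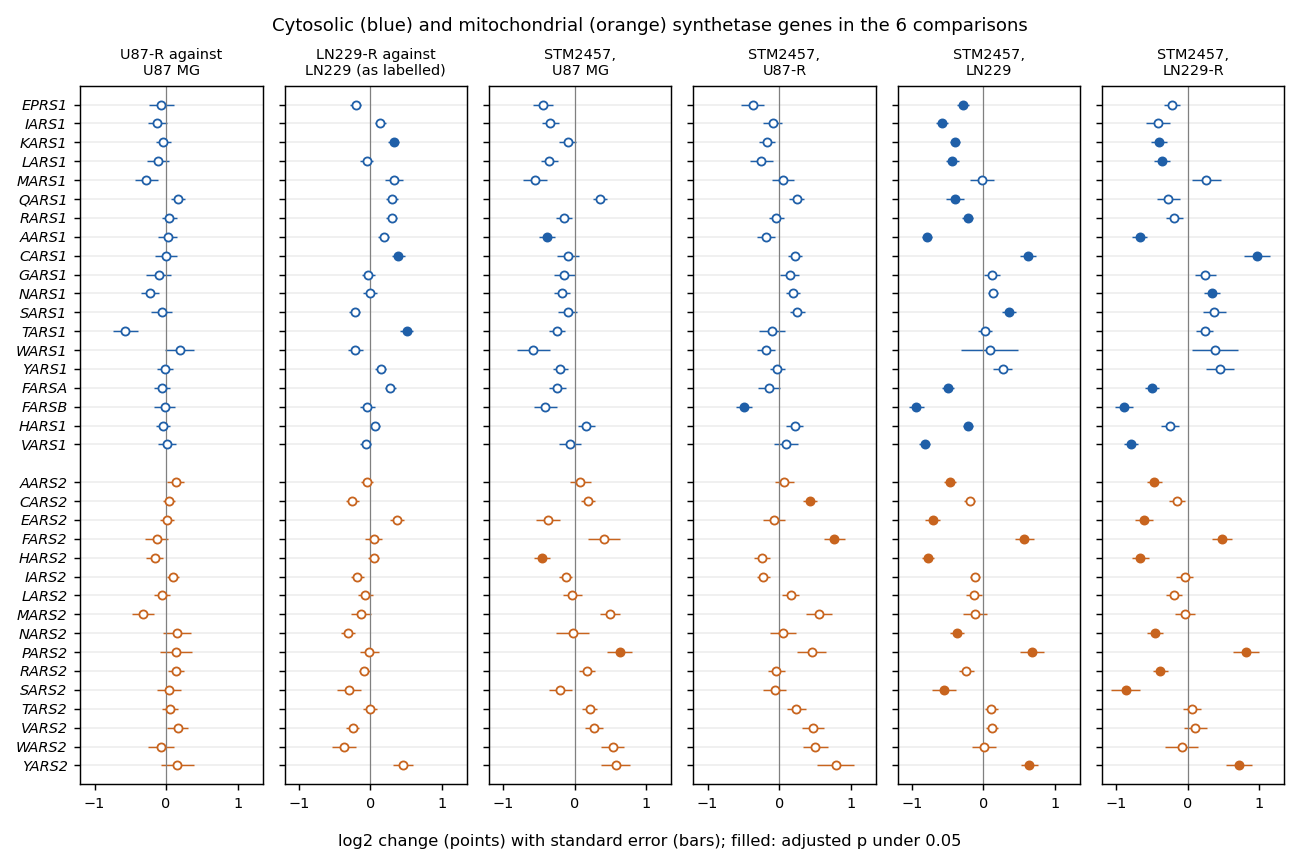
Log2 change of each synthetase gene (rows) in each comparison (panels), with standard errors; filled points passed at an adjusted p under 0.05, blue genes are cytosolic and orange genes mitochondrial. Filled points are concentrated in the 2 STM2457 panels of the LN229 lines, with 21 and 17 of 35, and CARS1, PARS2, YARS2 and FARS2 lie to the right of 0 in both.

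The largest falls among cytosolic members after STM2457 were those of FARSB, the β subunit of the cytosolic phenylalanyl enzyme, and VARS1, the valyl enzyme that binds elongation factor 1. FARSB stood at 1544.5, 1385.3 and 1457.5 normalized counts in the DMSO libraries of LN229 and at 861.5, 700.8 and 734.8 with STM2457. In LN229-R it stood at 1864.1, 1479.7 and 1681.9 against 988.5, 866.4 and 838.6. The groups did not overlap in either table, and the log2 changes were -0.94 ± 0.10 (SE; limma, adjusted p = 0.00021) and -0.90 ± 0.13 (adjusted p = 0.0013). FARSA, the catalytic α subunit, fell by 0.50 on the log2 scale in both tables. VARS1 stood at 2784.6, 2960.5 and 3022.8 in DMSO and 1705.3, 1563.7 and 1686.9 with STM2457 in LN229. In LN229-R its values were 3163.2, 3463.6 and 3360.5 against 2029.6, 1757.7 and 1982.6. Every treated library lay below every control library, with log2 changes of -0.82 ± 0.08 (adjusted p = 9.9e-05) and -0.79 ± 0.10 (adjusted p = 0.00092).

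AARS1, the alanyl enzyme, whose promoter holds the TGATGNAA letters at -187 to -180 from the start, fell beside them. In LN229 it stood at 4733.1, 5060.2 and 5169.0 in DMSO and at 2844.0, 2915.3 and 2909.5 with STM2457. In LN229-R it stood at 4814.8, 5069.3 and 4879.2 against 2932.8, 2907.3 and 3445.9. The separate groups gave changes of -0.79 ± 0.07 (limma, adjusted p = 9.2e-05) and -0.67 ± 0.11 (adjusted p = 0.0022). These falls of FARSB, FARSA, VARS1 and AARS1 were called in every fit that left out 1 library.

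CARS1, the cysteinyl enzyme, went the other way. Its values in LN229 were 1050.8, 1118.8 and 1028.5 in DMSO and 1489.7, 1911.8 and 1555.4 with STM2457. In LN229-R they were 977.6, 884.3 and 892.6 against 1623.1, 2412.3 and 1486.4. Every treated library was above every control, by 0.62 ± 0.11 (limma, adjusted p = 0.0020) and 0.97 ± 0.18 (adjusted p = 0.0045) on the log2 scale. Without STM2457 replicate 2, which was the highest in both tables, the rise was 0.51 (adjusted p = 0.0011) and 0.76 (adjusted p = 0.0022). SARS1, the seryl enzyme, was the other cytosolic riser in LN229 (0.35, adjusted p = 0.020), and NARS1, the asparaginyl enzyme, the other one in LN229-R (0.33, adjusted p = 0.047). SARS1 also rose in LN229-R once replicate numbers entered the fit as a block, with which 49.5% of all genes passed (0.37, adjusted p = 0.028 with the block and 0.099 without).

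Of 7 members of the multi-synthetase complex, 6 (85.7%) fell in LN229, where 49.7% of all genes were called and 23.6% fell. IARS1 (isoleucine) fell by 0.58, LARS1 (leucine) by 0.44 and QARS1 (glutamine) by 0.40 on the log2 scale. KARS1 (lysine) fell by 0.39, EPRS1 (glutamate and proline) by 0.28 and RARS1 (arginine) by 0.22. The seventh, MARS1 (methionine), had a log2 change of -0.02 (limma, adjusted p = 0.92). Their median was -0.39, beside -0.22 for all cytosolic members and -0.003 for all genes tested. HARS1 (histidine), which is outside the complex, fell by 0.21. In LN229-R only KARS1 (-0.40) and LARS1 (-0.36) of the complex passed, and the median of the 7 was -0.27. These calls are 28.6% of the 7, where 38.6% of all genes were called and 17.1% fell. The difference between the effects in both lines, given below, passed for 0 members. KARS1 stood at 3403.9, 3674.6 and 3681.6 in DMSO and 2686.0, 2739.1 and 2760.8 with STM2457 in LN229. In LN229-R it stood at 3194.1, 3030.3 and 3237.2 against 2604.3, 2079.2 and 2499.6, again with no overlap. AIMP2, a scaffold protein of the complex, rose in both tables (0.42, adjusted p = 0.0051, and 0.58, adjusted p = 0.0053).

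The smaller of these calls depended on single libraries. In LN229, EPRS1 lost its call without any one of the 3 DMSO libraries or STM2457 replicate 1, QARS1 without any DMSO library or STM2457 replicate 3, and RARS1 and HARS1 without any DMSO library or STM2457 replicates 1 or 3. SARS1 lost it without DMSO replicate 1 or 3. Their log2 changes in these fits ran from -0.34 to -0.22 for EPRS1, -0.51 to -0.27 for QARS1, -0.25 to -0.18 for RARS1, -0.22 to -0.20 for HARS1 and 0.25 to 0.42 for SARS1, and the highest adjusted p was 0.13. In LN229-R the call of LARS1 was lost in every such fit (-0.43 to -0.31, adjusted p up to 0.11), that of NARS1 in all but the one without STM2457 replicate 2 (0.26 to 0.39, up to 0.14), and that of KARS1 without DMSO replicate 1 or 3 or STM2457 replicate 3 (-0.47 to -0.30, up to 0.094). Over all members, the count in LN229-R was 17 with all libraries, where 3674 of 17063 genes were higher and 2917 lower. It went to 10 without DMSO replicate 3, where 2697 of 17064 genes were higher and 1667 lower. It went to 11 without DMSO replicate 1 (2987 of 17081 genes higher, 1874 lower) or STM2457 replicate 3 (2696 of 17108 higher, 2007 lower).

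WARS1 shows how 1 library stood apart. In LN229 its normalized counts were 6959.4, 5930.1 and 6282.3 in DMSO and 4553.2, 14776.4 and 4641.7 with STM2457. In LN229-R they were 9112.8, 8247.7 and 7592.9 against 8037.0, 19561.4 and 8049.7. Treated replicate 2 was 3.21-fold and 2.43-fold above the geometric mean of the other two treated libraries. With it, the log2 change was 0.09 ± 0.40 (limma, adjusted p = 0.87) in LN229 and 0.38 ± 0.32 (adjusted p = 0.37) in LN229-R. Without it, the change in LN229 was -0.47 ± 0.08 (adjusted p = 0.0018), a fall, and in LN229-R -0.04 ± 0.12 (adjusted p = 0.79). MARS1, YARS1 (tyrosine), GARS1 (glycine), SARS1 and CARS1 were also highest in that replicate in both tables, MARS1 by 1.52-fold and 1.57-fold and YARS1 by 1.44-fold and 1.67-fold.

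All 5 interferon-γ-linked genes analysed (IRF1, GBP1, GBP2, TAP1 and PSMB9) were highest in treated replicate 2 in both tables, where 36.7% and 37.6% of all genes were highest in it. The median of the 5 was 0.88 above the other two replicates on the log2 scale in LN229 and 0.77 in LN229-R. TAP1 stood at 1820.4, 4458.5 and 1871.9 in the treated LN229 libraries and 2384.2, 5678.4 and 2523.9 in the treated LN229-R libraries. Of 24 ATF4 targets and genes of amino acid supply, 21 and 22 were highest in it, among them ASNS (asparagine synthetase), at 1149.4, 1996.0 and 1291.7 in LN229 and 1438.8, 3904.2 and 1754.9 in LN229-R. Of 12 cytosolic synthetase genes linked to ATF4, 11 and 9 were highest in it, and of 16 mitochondrial synthetase genes 9 and 3. FARSB and VARS1 were not highest in it in either table. The part of this library in each change was not tested beyond leaving it out. Without it, 22 members were called in LN229 (5 higher, 17 lower), where 4490 of 17052 genes were higher and 4131 lower. In LN229-R 18 members were called without it, where 3576 of 17018 genes were higher and 2849 lower.

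**Figure D2:**
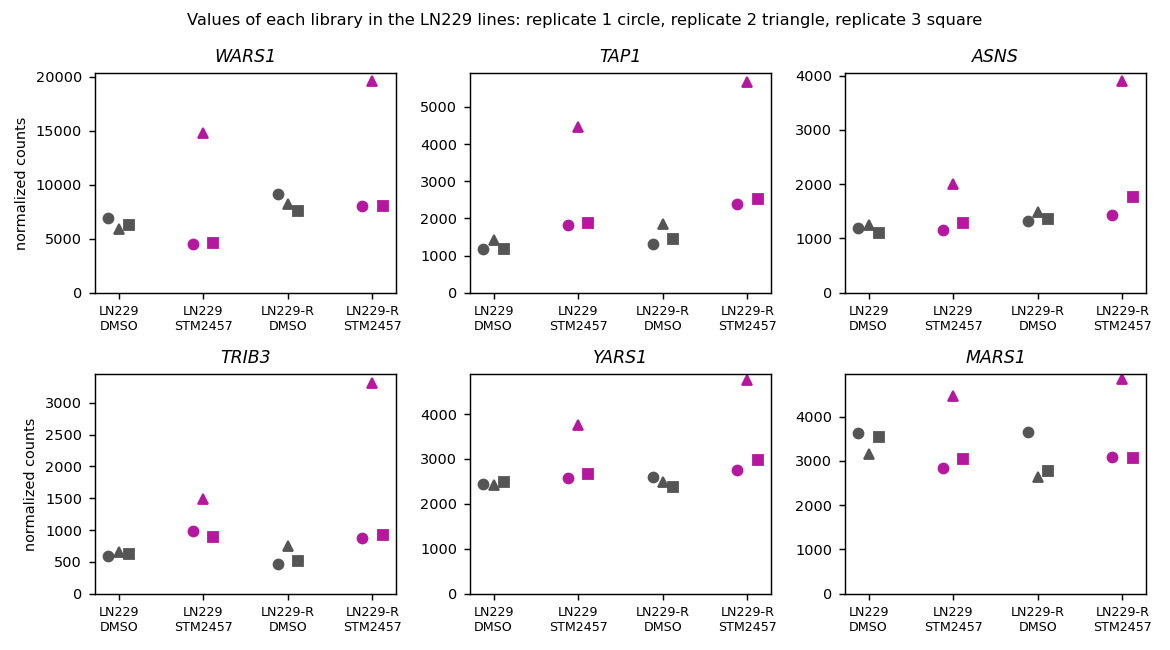
Normalized counts of WARS1, YARS1, MARS1 and of TAP1, ASNS and TRIB3 in each library of the LN229 drug tables, DMSO in grey and STM2457 in magenta, with a symbol for each replicate number. Replicate 2 (triangle) is the highest of the treated libraries in every panel, for WARS1 at 14776.4 in LN229 and 19561.4 in LN229-R.

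Among mitochondrial members the LN229 lines showed rises of PARS2 (proline), YARS2 (tyrosine) and FARS2 (phenylalanine) beside falls of HARS2 (histidine), EARS2 (glutamate), SARS2 (serine), AARS2 (alanine) and NARS2 (asparagine). All 8 passed in both tables, and RARS2 (arginine) fell in LN229-R in addition (-0.38, limma, adjusted p = 0.023). The 8 of 16 are 50.0% in LN229, where 49.7% of all genes were called, and the 9 are 56.2% in LN229-R, where 38.6% were. PARS2 stood at 197.4, 181.3 and 187.8 in DMSO and 253.3, 386.2 and 284.8 with STM2457 in LN229. In LN229-R it stood at 213.0, 232.2 and 195.3 against 307.2, 450.3 and 379.5. No treated library fell to a control level, and the log2 changes were 0.68 ± 0.17 (adjusted p = 0.011) and 0.81 ± 0.18 (adjusted p = 0.010). FARS2 had 248.8, 242.5 and 234.9 against 412.5, 314.8 and 359.7 in LN229 (0.57, adjusted p = 0.0078). In LN229-R it had 280.2, 246.3 and 264.7 against 374.8, 346.0 and 377.8 (0.47, adjusted p = 0.029), with the groups apart in both. YARS2, the 1 of 14 mitochondrial promoters searched that held the ATF4-type letters, rose by 0.64 and 0.71.

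HARS2 had the largest mitochondrial fall in LN229 and SARS2 in LN229-R. The DMSO libraries of HARS2 stood at 1226.3, 1247.2 and 1245.0 in LN229 and the treated ones at 687.9, 712.9 and 775.5. In LN229-R the values were 1323.1, 1333.3 and 1331.9 against 870.3, 744.2 and 915.2. The groups were far apart in both tables, with log2 changes of -0.77 ± 0.08 (limma, adjusted p = 0.00020) and -0.66 ± 0.11 (adjusted p = 0.0032). SARS2 had 361.7, 259.5 and 322.1 against 216.5, 185.6 and 239.2 in LN229 and 437.6, 324.6 and 400.9 against 257.1, 169.6 and 213.4 in LN229-R. The log2 changes of SARS2 were -0.55 (adjusted p = 0.024) and -0.87 (adjusted p = 0.012). In GENCODE v29, 46.2% of the exon bases of SARS2 are shared with the gene AC011455.2 on the same strand, so its counts are uncertain. EARS2 fell by 0.71 and 0.62, AARS2 by 0.47 in both, and NARS2 by 0.37 and 0.46 on the log2 scale.

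HARS1 and HARS2 start head to head, 84 bases apart on chromosome 5, and their changes are given side by side. The part of that shared stretch in them was not tested. HARS1 fell by 0.21 in LN229 and had a change of -0.25 (limma, adjusted p = 0.14) in LN229-R, where HARS2 fell by 0.66. In U87 MG HARS1 had a change of 0.161, which did not pass, and HARS2 fell (-0.461). In U87-R the changes were 0.215 for HARS1 and -0.238 for HARS2, and neither passed without the replicate block. On the opposite strand, 8.38% of the exon bases of HARS1 overlap HARS2 or WDR55, and 11.7% of those of HARS2 overlap HARS1. Whether counting used the strand is not stated in the sources used here. The bases between both starts (chr5:140691371-140691454 of GRCh38.p14, plus strand, from RefSeq) are shown because both genes have them as promoter. The capitals mark the 2 matches to CCGGAAGT, 1 on each strand.

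HARS1 to HARS2: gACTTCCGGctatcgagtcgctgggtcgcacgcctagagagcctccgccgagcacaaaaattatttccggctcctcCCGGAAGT

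Several mitochondrial calls rested on single libraries. In LN229, SARS2 lost its call without DMSO replicate 1 or 3 (-0.68 to -0.44 over all such fits, limma, adjusted p up to 0.091) and NARS2 without DMSO replicate 2 (-0.42 to -0.30, up to 0.057). In LN229-R, AARS2 and NARS2 lost it without DMSO replicate 3 (adjusted p 0.055 and 0.054), YARS2 without DMSO replicate 1 or STM2457 replicate 3 (0.61 to 0.86, up to 0.062), and RARS2 without DMSO replicate 1 or 3 or STM2457 replicate 3 (-0.43 to -0.33, up to 0.067). FARS2 kept it there only in the fit without STM2457 replicate 2 (0.42 to 0.52, up to 0.098). PARS2, HARS2 and EARS2 kept their calls in every such fit in both tables.

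**Figure D3:**
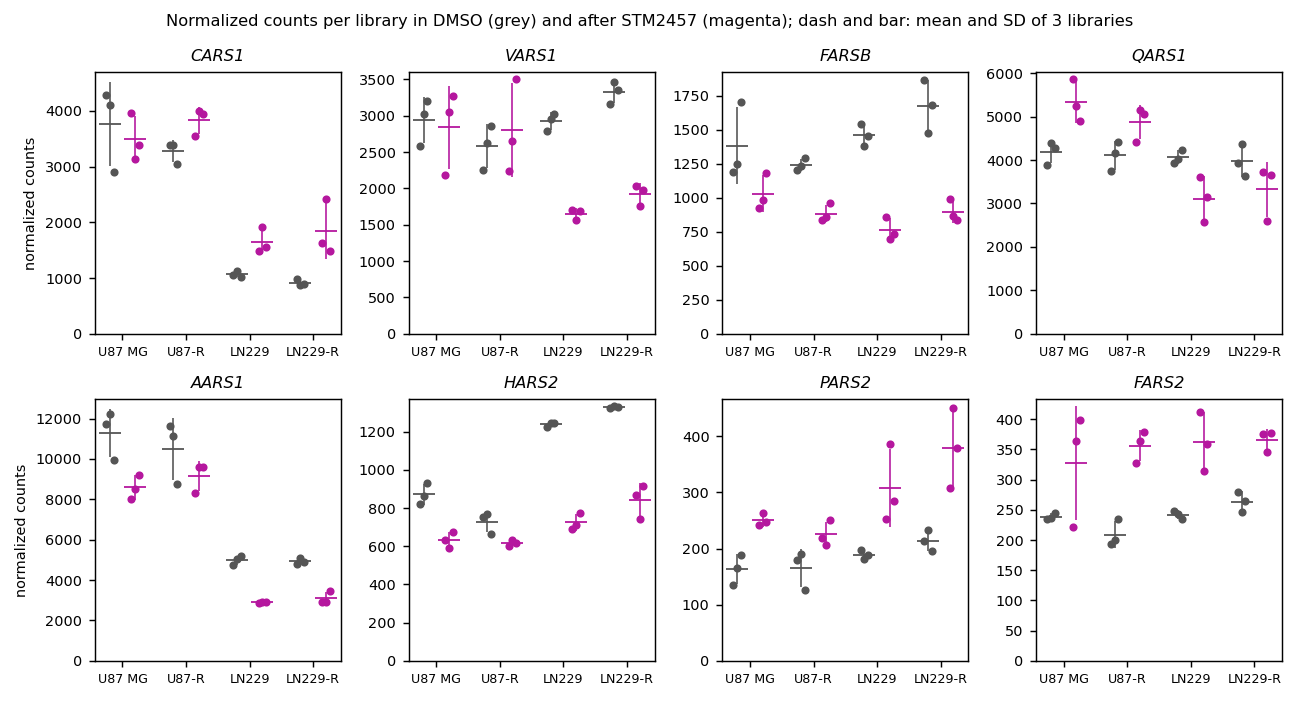
Normalized counts of 8 synthetase genes per library in the 4 STM2457 tables, with DMSO in grey, STM2457 in magenta, and the mean and SD of the 3 libraries as a dash and bar; levels of different tables were normalized separately. In the LN229 lines the treated libraries of VARS1, FARSB, AARS1 and HARS2 lie below all controls, while those of CARS1, PARS2 and FARS2 lie above.

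The LN229 tables share no library. Treated replicate 2 stood apart in both, as described with WARS1, so the tables are not shown to be independent. The joint fit below has no term for a deviation common to both tables. The calls shared 15 genes, which passed in the same direction in both and made up 71.4% of the calls in LN229 and 88.2% of those in LN229-R. Among all genes the shares were 67.9% and 86.8%. The sign of the change was the same for 33 of 35 members, beside 88.8% of all genes. The difference between the effects in LN229-R and LN229 was itself tested in a joint limma fit and passed for 0 of 35 members, with 0 at an unadjusted p under 0.05 and 0.00606% of all genes called. The 2 lowest p-values belonged to NARS1 (difference 0.20 ± 0.12, adjusted p = 1.0) and CARS1 (0.35 ± 0.22, adjusted p = 1.0). NARS1 had 4175.1, 3746.7 and 4060.9 against 4380.3, 4422.8 and 4344.8 in LN229 and 4790.6, 3991.1 and 4530.6 against 5957.8, 5285.6 and 5513.5 in LN229-R, so that the treated libraries were above all controls in both.

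In U87 MG the calls were 1 rise, of PARS2, and 2 falls, of HARS2 and AARS1. PARS2 stood at 135.3, 165.4 and 189.2 in DMSO and 241.1, 263.8 and 246.5 with STM2457 (0.63 ± 0.17, limma, adjusted p = 0.046). HARS2 stood at 819.9, 864.6 and 930.9 against 632.1, 592.0 and 675.9 (-0.46 ± 0.11, adjusted p = 0.029). AARS1 stood at 11712.6, 12228.9 and 9944.7 against 8030.4, 8507.7 and 9227.2 (-0.39 ± 0.11, adjusted p = 0.046). The groups were apart for each of the 3 genes, as for 15 of 35 members and 34.8% of all genes. The same 3 genes passed in the same direction in LN229 and LN229-R, which is 14.3% and 17.6% of the calls there, beside 18.5% and 20.9% among all genes. Of the U87 MG calls of all genes, 64.9% and 57.2% passed likewise in those tables.

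In U87-R the calls were the rises of FARS2 and CARS2, the mitochondrial cysteinyl enzyme, and the fall of FARSB. FARS2 had 192.7, 199.5 and 234.0 normalized counts against 327.9, 363.4 and 378.1 (0.77 ± 0.15, limma, adjusted p = 0.012). CARS2 had 5037.5, 5379.1 and 5205.6 against 6426.5, 7071.3 and 7655.2 (0.43 ± 0.10, adjusted p = 0.019). FARSB had 1204.6, 1237.5 and 1290.7 against 835.9, 859.2 and 960.1 (-0.49 ± 0.11, adjusted p = 0.018). Here too treated and control libraries were apart for the 3 genes, as for 14 of 35 members and 35.3% of all genes. FARS2 and FARSB passed in the same direction in both LN229 tables (66.7% of the U87-R calls, beside 63.5% and 56.1% among all genes). Between U87 MG and U87-R 0 members passed in both, whereas 60.9% and 57.3% of the calls among all genes were shared. The sign of the change was the same for 26 of 35 members (74.3%), beside 78.1% of all genes.

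Deviations of like-numbered libraries of the U87 lines were correlated, though for replicate 2 of U87-R not above every unlike-numbered pair. With the replicate number as a block 13 members passed in each line, where 25.2% and 29.6% of all genes did. In U87 MG these were 5 rises (PARS2, QARS1, MARS2, WARS2 and YARS2) and 8 falls (HARS2, AARS1, EPRS1, IARS1, LARS1, MARS1, WARS1 and FARSB). In U87-R they were 9 rises (FARS2, CARS2, QARS1, HARS1, MARS2, TARS2, VARS2, WARS2 and YARS2) and 4 falls (FARSB, EPRS1, LARS1 and IARS2). QARS1, MARS2, WARS2 and YARS2 rose and FARSB, EPRS1 and LARS1 fell in both lines in these fits. The changes of those 7 with the block ran from -0.45 to 0.57 in U87 MG and from -0.49 to 0.79 in U87-R. For YARS2 the changes were 0.57 (limma, adjusted p with the block 0.020, without it 0.091) and 0.79 (0.0039 and 0.076).

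The calls in the U87 lines without the block depended on single libraries. In U87 MG, AARS1 (-0.48 to -0.33) and PARS2 (0.50 to 0.74) were called only in the fit without DMSO replicate 3 and HARS2 (-0.51 to -0.41) only in those without DMSO replicate 1 or STM2457 replicate 3, with limma adjusted p up to 0.16. In U87-R the calls of FARS2 (0.72 to 0.86), CARS2 (0.37 to 0.50) and FARSB (-0.55 to -0.45) were each lost without DMSO replicate 2 or STM2457 replicate 2, those of CARS2 and FARSB also without DMSO replicate 1, and that of FARSB without STM2457 replicate 1, with adjusted p up to 0.085. The count of members called was 0 without replicate 2 of either arm in both lines. In U87 MG 744 of 16381 genes were higher and 464 lower without DMSO replicate 2. Without STM2457 replicate 2 there, 519 of 16415 were higher and 371 lower. In U87-R the same 2 fits gave 717 of 16190 genes higher and 425 lower, and 514 of 16195 higher and 370 lower. The count of members was 5 in both lines without DMSO replicate 3. There 1073 of 16413 genes were higher and 684 lower in U87 MG, and 1336 of 16200 higher and 881 lower in U87-R. Without DMSO replicate 1 it was 1 in both, where 1044 of 16359 and 819 of 16173 genes were higher and 759 and 542 lower. In U87 MG it was 4 without STM2457 replicate 1, where 1007 of 16385 genes were higher and 767 lower. The direction of each change was the same in all these fits.

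Over the cytosolic members, the median log2 change with STM2457 was -0.20 in U87 MG, -0.04 in U87-R, -0.22 in LN229 and -0.22 in LN229-R. Over the mitochondrial members it was 0.18, 0.20, -0.12 and -0.12, where all genes had -0.01, -0.005, -0.003 and -0.02. In U87 MG 17 of 19 cytosolic changes were negative and 10 of 16 mitochondrial changes were positive. In U87-R the counts were 11 and 11. In the LN229 lines both compartments had a negative median, with 12 and 11 of 19 cytosolic and 10 and 11 of 16 mitochondrial changes negative.

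For 14 amino acids the members hold a cytosolic and a mitochondrial gene, with FARSB taken for phenylalanine. With STM2457 the mitochondrial gene had the higher log2 change in 12 of these 14 pairs in U87 MG, 10 in U87-R, 7 in LN229 and 6 in LN229-R. Between resistant and parental controls it had the higher change in 10 pairs in U87, where 0 members were called. In LN229 as labelled it did in 2. With FARSB, phenylalanine gave the widest opposite pair: FARSB fell and FARS2 rose in U87-R, LN229 and LN229-R. FARSA, the other subunit gene, fell less than FARSB in the LN229 lines and was not called in U87-R. In LN229 the serine pair was opposite as well, SARS1 rising by 0.35 and SARS2 falling by 0.55, and in LN229-R the asparagine pair, NARS1 rising by 0.33 and NARS2 falling by 0.46. Both genes fell for alanine in both LN229 lines and for histidine in LN229. For valine VARS1 fell in both LN229 lines, while VARS2 had changes of 0.12 and 0.11 (limma, adjusted p = 0.30 and 0.61); 22.0% of the exon bases of VARS2 are shared with GTF2H4 on the same strand.

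**Figure D4:**
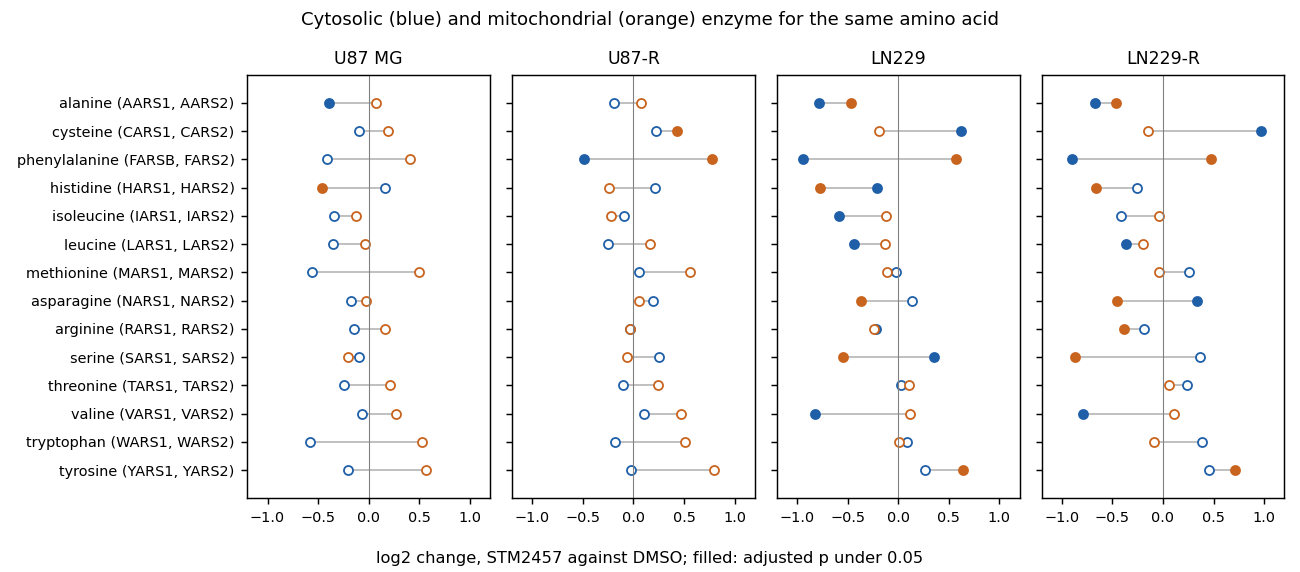
Log2 change with STM2457 of the cytosolic (blue) and mitochondrial (orange) gene for each of 14 amino acids in the 4 lines; filled points passed at an adjusted p under 0.05. The phenylalanine pair, drawn with FARSB, is split in U87-R, LN229 and LN229-R, and alanine is down in both compartments in the LN229 lines.

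Whether STM2457 acted differently in the 2 backgrounds was tested in joint limma fits of 2 tables, which share no library. Between LN229 and U87 MG the effect differed for 6 of 35 members, where it differed for 18.8% of all genes. Between LN229-R and U87-R it differed for 4, where 14.4% of all genes did. VARS1 had the larger difference in both: -0.76 ± 0.19 (adjusted p = 0.015) and -0.89 ± 0.21 (adjusted p = 0.013) on the log2 scale. In the U87 lines VARS1 had 2587.7, 3030.5 and 3205.9 in DMSO against 2190.8, 3052.1 and 3277.0 with STM2457 in U87 MG, and 2259.1, 2620.6 and 2861.4 against 2245.3, 2649.5 and 3505.2 in U87-R, with the groups overlapping in each.

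QARS1, the glutaminyl enzyme, had changes of opposite sign in the 2 backgrounds. In U87 MG it stood at 3889.8, 4394.0 and 4271.4 in DMSO and 5863.3, 5251.6 and 4908.8 with STM2457, all above the controls. In LN229 it stood at 3924.9, 4035.3 and 4241.2 against 3613.9, 2565.5 and 3160.6, all below. The difference was -0.75 ± 0.16 (limma, adjusted p = 0.0075). The other differences between LN229 and U87 MG were 0.72 for CARS1, -0.55 for AARS2, -0.39 for AARS1 and -0.38 for CARS2. Between the resistant lines they were 0.75 for CARS1, -0.58 for CARS2 and -0.54 for AARS2. CARS2 stood at 1369.5, 1621.3 and 1392.9 in DMSO and 1311.5, 1354.5 and 1273.8 with STM2457 in LN229-R, each below every control, while in U87-R every treated library was above every control. The differences for QARS1 and VARS1 in the first test and for CARS2 and VARS1 in the second were called in all 12 fits that left out 1 library. Those for CARS1, CARS2, AARS2 and AARS1 in the first were lost in 7, 7, 10 and 10 of them and those for CARS1 and AARS2 in the second in 7 and 11, with adjusted p up to 0.12. With the replicate block 10 and 12 members passed, where 25.0% and 27.3% of all genes did, and AARS1 did not (adjusted p = 0.055). The block added SARS1, KARS1, FARSB, HARS1 and MARS2 in the first test and EARS2, SARS2, HARS2, FARSB, NARS2, HARS1, FARSA and MARS2 in the second. With the LN229 names exchanged, a choice made after seeing the data, 4 members differed in the first test (CARS1, VARS1, RARS2 and NARS1), where 14.7% of all genes did. In the second 9 did (CARS2, VARS1, AARS2, HARS2, AARS1, QARS1, HARS1, EARS2 and FARSB), where 17.9% of all genes did.

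**Figure D5:**
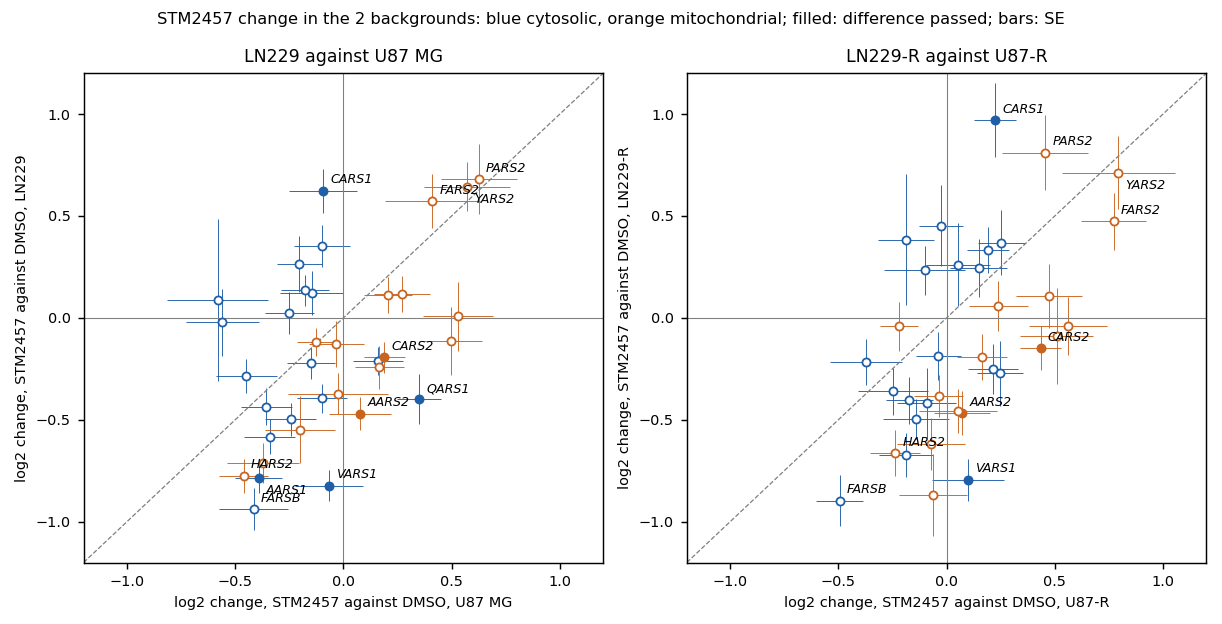
Log2 change with STM2457 in an LN229 line (vertical) against the matching U87 line (horizontal), with standard errors; filled genes passed the test of the difference, and the dashed line marks equal changes. VARS1, AARS2 and CARS2 lie below the line and CARS1 above it in both panels, with differences for VARS1 of -0.76 and -0.89.

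Between U87-R and U87 MG the drug effect differed for 0 members and 0.0% of all genes, with 2 members at an unadjusted p under 0.05 in limma. These were NARS1 (0.37 ± 0.15, adjusted p = 1.0) and MARS1 (0.61 ± 0.25, adjusted p = 1.0). NARS1 had 4370.9, 4422.0 and 3486.9 in DMSO against 3643.2, 3640.0 and 3512.0 in U87 MG, and 3380.3, 3299.1 and 2863.5 against 3638.9, 3724.0 and 3504.4 in U87-R. MARS1 had 6761.6, 7444.1 and 5516.2 against 5426.2, 3524.1 and 4525.9 in U87 MG, and 6262.4, 4834.2 and 4368.8 against 4836.1, 4996.4 and 6112.7 in U87-R. The treated libraries overlapped the controls for NARS1 in U87 MG and for MARS1 in U87-R. In addition, 12.4% of the exon bases of MARS1 overlap ARHGAP9 or the ATF4 target DDIT3 on the opposite strand.

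In DMSO, 3 cytosolic members were higher in the libraries labelled LN229-R than in those labelled LN229. TARS1, the threonyl enzyme, stood at 3003.3, 2498.7 and 2797.3 in the libraries labelled LN229 and 3977.7, 3838.9 and 3935.6 in those labelled LN229-R (0.51 ± 0.09, limma, adjusted p = 0.012). CARS1 stood at 985.4, 887.0 and 896.9 against 1196.0, 1269.2 and 1168.5 (0.39 ± 0.09, adjusted p = 0.031). KARS1 stood at 3236.3, 3055.3 and 3269.8 against 3803.7, 4093.1 and 4106.8 (0.33 ± 0.08, adjusted p = 0.035). The groups were apart for all 3, as they were for 19 of 35 members and 30.9% of all genes. With the names of the drug tables the 3 genes would be lower in LN229-R. No mitochondrial member passed, and the medians were 0.14 for cytosolic and -0.08 for mitochondrial members.

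Like-numbered LN229 controls deviated together, and with the replicate block 8 members passed where 15.2% of all genes did. The added genes were RARS1 (0.30), FARSA (0.28), EARS2 (0.37) and YARS2 (0.46), higher in the libraries labelled LN229-R, and NARS2 (-0.32), lower. Without the block their limma adjusted p ranged from 0.050 to 0.086. No member was called when any 1 library labelled LN229-R was left out, where 534 to 683 genes were called in all. Over all fits without 1 library the highest limma adjusted p was 0.070 for TARS1, 0.13 for CARS1 and 0.16 for KARS1. Without DMSO replicate 2 labelled LN229 8 members were called, where 3262 of 17140 genes were. Without replicate 1 of that label 3 members were called, where 1039 of 17185 genes were. Without replicate 3 of it 2 were called, where 906 of 17136 genes were.

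In U87, 0 of 35 members differed between the resistant and the parental controls by limma, with 1 at an unadjusted p under 0.05 and the groups apart for 3 members and 23.3% of all genes. That 1 was TARS1, at 4510.8, 4412.6 and 3491.7 in U87 MG and 3407.7, 2902.6 and 2143.2 in U87-R. Each U87-R library was below each U87 MG library (-0.57 ± 0.17, adjusted p = 0.12), and with the replicate block, where 7.21% of all genes passed, TARS1 was lower (adjusted p = 0.0099). The log2 changes of the other members ran from -0.33 for MARS2 to 0.19 for WARS1.

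The difference between both resistance comparisons passed for TARS1, at 1.08 ± 0.21 (limma, adjusted p = 0.0067), where 8.88% of all genes passed. The difference held in all 12 fits that left out 1 library. With the LN229 names of the drug tables, tested after seeing the data, the difference for TARS1 was 0.07 ± 0.21 (adjusted p = 0.91), and 0 members passed by limma (5 at an unadjusted p under 0.05), where 7.44% of all genes did. The call therefore rests on the names of the resistance table. The next lowest p was that of KARS1 (0.37 ± 0.12, adjusted p = 0.091), which in U87 had 2972.2, 2980.2 and 3470.7 in U87 MG and 2935.6, 2946.7 and 3291.0 in U87-R, with the groups overlapping. With the replicate block 4 members passed, where 14.2% of all genes did: TARS1, KARS1, WARS1 and MARS1.

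Across the 6 comparisons, 7 members passed in 3 of them (AARS1, CARS1, FARSB, KARS1, FARS2, HARS2 and PARS2), 8 in 2, 10 in 1 and 10 in none. How many of all genes passed as often was not counted, and 49.7% and 38.6% of all genes passed in the LN229 drug tables. The resistance comparisons use the DMSO libraries of the drug comparisons, so these passes are not independent. For CARS1 and KARS1 a pass in LN229 resistance is among them. Those that passed in none were GARS1, MARS1, WARS1, YARS1, IARS2, LARS2, MARS2, TARS2, VARS2 and WARS2. Their log2 changes ranged from -0.58 (WARS1 in U87 MG) to 0.56 (MARS2 in U87-R). TARS2 stayed between -0.005 and 0.24 and GARS1 between -0.15 and 0.25, while WARS2 had 0.53 and 0.51 in the U87 lines and 0.007 and -0.09 in the LN229 lines. A p above the threshold does not show that these genes were unaffected.

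The ATF4 targets and amino acid supply genes give the setting in which the cytosolic members moved. With STM2457, 12 of 24 rose and 4 fell in LN229, where 26.2% of all genes rose and 23.6% fell. In LN229-R 9 rose and 2 fell, where 21.5% and 17.1% of all genes did. ATF3, a stress-induced transcription factor, rose by 2.89 and 3.02 (limma, adjusted p = 6.0e-06 and 3.4e-05) and ATF4 itself by 0.64 and 0.70 on the log2 scale. SLC3A2, the heavy chain of amino acid transporters, rose by 1.94 in LN229-R, and PYCR1, which makes proline, fell by 1.25 in LN229. Without treated replicate 2 the counts were 12 and 7 in LN229, where 4490 of 17052 genes rose and 4131 fell. In LN229-R they were 10 and 3, where 3576 of 17018 genes rose and 2849 fell. In U87 MG 1 rose and 5 fell, where 7.86% and 5.72% of all genes did. In U87-R 3 rose and 2 fell, where 8.46% and 6.2% of all genes did. STC2, a secreted glycoprotein, stood at -1.13 and -1.23 in these lines. PYCR1 stood at -0.74 in U87 MG and DDIT4, an inhibitor of mTORC1, at -0.91 in U87-R. With the replicate block 14 rose and 3 fell in LN229-R, 3 rose and 9 fell in U87 MG, and 6 rose and 5 fell in U87-R, where 49.5%, 25.2% and 29.6% of all genes passed.

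Of the 12 cytosolic synthetase genes linked to ATF4, 2 rose (CARS1 and SARS1) and 4 fell (AARS1, IARS1, LARS1 and EPRS1) in LN229. In LN229-R 2 rose (CARS1 and NARS1) and 2 fell (AARS1 and LARS1). The calls are 50.0% and 33.3% of the 12, where 49.7% and 38.6% of all genes were called. The medians of the 12 were 0.06 and 0.25, beside 0.50 and 0.52 for the 24 other ATF4-linked genes. Without treated replicate 2 the medians were -0.16 and 0.07 for the synthetase genes, so that the sign in LN229 turned, and 0.29 and 0.23 for the others. Of the 6 cytosolic genes with the TGATGNAA letters, AARS1 fell in both tables, IARS1 fell in LN229, CARS1 rose in both, NARS1 rose in LN229-R, and MARS1 and TARS1 passed in neither. Of 8 genes that control the integrated stress response, 2 rose and 2 fell in LN229 and 2 rose in LN229-R. In U87-R 1 rose and 1 fell. The calls are 50.0%, 25.0% and 25.0% in that order, where 49.7%, 38.6% and 14.7% of all genes were called. In U87 MG a call (PPP1R15A, higher) came with the replicate block alone. PPP1R15A, the eIF2α phosphatase subunit, rose by 1.52 in LN229, 1.76 in LN229-R and 0.53 in U87-R. EIF2AK4, the kinase GCN2 that senses uncharged tRNA, rose by 0.37 and 0.49 in the LN229 lines. GCN1, the activator of GCN2, and EIF2S1, which encodes eIF2α, fell in LN229 (-0.35 and -0.50), and EIF2AK2, the kinase PKR, fell in U87-R (-0.44).

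Interferon-γ-linked genes were given for the sake of WARS1. With STM2457, IRF1 and PSMB9 fell in U87 MG (-0.82 and -0.61) and U87-R (-0.41 and -0.59), and GBP1 fell in U87 MG (-0.78). WARS1 had a change of -0.58 in U87 MG (limma, adjusted p = 0.14), where it stood at 7005.7, 5244.5 and 4001.6 in DMSO and 4729.4, 2734.7 and 3404.4 with the drug. The groups overlapped, and with the replicate block the fall passed (adjusted p = 0.012). In the LN229 lines TAP1, a peptide transporter of antigen presentation, rose by 0.98 and 1.10, and by 0.56 and 0.69 without treated replicate 2. On the opposite strand, 10.6% of the exon bases of WARS1 overlap AL157871.4 or WDR25.

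Genes whose products work beside the synthetases were counted in the same way. Among 8 charging partners AIMP2 also rose in U87-R (0.57, limma, adjusted p = 0.040) and in the libraries labelled LN229-R in DMSO (0.36, adjusted p = 0.038). AARSD1, an editing protein that clears mischarged alanyl-tRNA, fell in LN229 (-0.59) and LN229-R (-0.83), and DTD1, a D-aminoacyl-tRNA deacylase, in LN229 (-0.42). Of 6 cytosolic elongation factor genes, EEF1A2 rose by 3.47 and 3.97 in the LN229 lines and EEF1B2 fell by 0.51 and 0.95. EEF1A2 stood at 89.0, 83.3 and 118.8 in DMSO and 916.7, 1184.6 and 1141.9 with STM2457 in LN229, with no overlap. All 6 elongation factor genes were lowest in treated replicate 2 in LN229-R, where 7356 of 17063 genes were. In LN229 5 of 6 were lowest in it, where 6674 of 17107 genes were.

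Among 13 partners of mitochondrial translation, TSFM, the elongation factor Ts, rose in all 4 drug comparisons by 0.54 and 0.46 on the log2 scale in the U87 lines and 0.57 and 0.58 in the LN229 lines. MTIF3, an initiation factor, rose in U87 MG (0.65), LN229 (0.74) and LN229-R (0.63), and MRRF, the ribosome recycling factor, in U87 MG (0.42) and U87-R (0.46). GFM2, a recycling GTPase, fell in the LN229 lines by 0.42 and 0.47. Of 6 genes of selenocysteine synthesis, SEPHS2, the selenophosphate synthetase, rose in all 4 lines by 0.56, 0.71, 1.24 and 1.22 (limma, adjusted p = 0.028, 0.019, 1.3e-05 and 0.00011), and SEPSECS fell in LN229-R (-0.62). Between the DMSO libraries labelled LN229-R and LN229, EEF1A2 (1.97), GFM1 (0.47), EEFSEC (0.74) and STC2 (1.03) were higher and SLC7A11 was lower (-0.99), with the direction again resting on the names.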

How the data were processed

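The members and companion lists were chosen with earlier results of these data known. The authors deposited a signal, namely normalized counts, in 6 tables of 6 libraries, 1 for each comparison. Per the submitters' processing notes DESeq2, Salmon 1.4.0, STAR 2.7.11a and Trimmomatic 0.39 were used with the build hg38 (GRCh38); their order and settings are not given in the sources used here. Whole reads could not be recovered because the factors differ between genes, so count models were not used. Symbols came from Ensembl identifiers without version.

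Each table was fitted with limma 3.58.1 (R 4.3.3, variance trend) on log2(value + 1), keeping genes whose mean reached 10, and p-values were adjusted (Benjamini-Hochberg) over all genes tested. Differences between effects came from joint fits of 12 libraries with a mean for each group and table. The script was tested on simulated data. Alternatives were pseudocounts of 0.5 and 5, no filter and a filter at 50, scaling to equal upper quartiles or equal totals, a fit without the trend, a block for the replicate number, and leaving out each library. The joint fits were also run with the LN229 names exchanged, chosen after seeing the data.

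Like-numbered libraries were paired where the correlation of their deviations from group means, over genes whose mean reached 200, was above 0.1 for every pair. This held in 5 of 6 comparisons (0.107 to 0.557) and not for STM2457 in LN229 (0.062 to 0.244). The rule did not look at unlike-numbered pairs. For STM2457 in LN229 these were all negative, the lowest at -0.167, and so below every like-numbered pair. For STM2457 in U87-R the replicate 2 pair (0.205) was below unlike-numbered pairs (0.247 and 0.221). In U87 resistance the replicate 2 pair (0.107) was below an unlike-numbered pair (0.147). The pairing comes from these correlations, since the labels give no more than numbers.

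Every member that passed is named with its log2 change. Values of each library are given for members that passed in at least 3 comparisons, for the largest rise and fall per comparison in each compartment, and for the 2 lowest p-values of each test of a difference. Of the companion lists the 2 genes with the lowest p per comparison could be named; further companion genes were named after their values were seen. A further companion gene is not reported here. Promoters are RefSeq's, GRCh38.p14.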

Additional observations from a re-analysis of the deposited data

Results flagged for a closer look

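These results were picked out because the effect of the same contrast differed between 2 backgrounds in a joint limma fit, with adjusted p under 0.05 over all genes. For STM2457 in LN229 against U87 MG the differences in log2 change were 0.717 for CARS1, -0.757 for VARS1, -0.749 for QARS1, -0.546 for AARS2, -0.394 for AARS1 and -0.382 for CARS2. For LN229-R against U87-R they were 0.747 for CARS1, -0.893 for VARS1, -0.584 for CARS2 and -0.540 for AARS2. For the resistance comparison in LN229 against U87 the difference was 1.077 for TARS1, with the LN229 libraries as labelled, and 0.065 (adjusted p = 0.91) with the LN229 names of the drug tables. Library kit and medium differed with the background in all of them, and their part was not tested. No group had 4 or more libraries, so no rule was applied to find single outlying libraries. STM2457 replicate 2 of both LN229 lines was described because its values stood apart.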

How the results depend on the processing

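Of 47 calls of single members, 23 held in every fit that left out 1 library and 32 under every other scaling, filter, pseudocount and trend setting. Of 11 differences, 5 and 5 did. None of these changed direction in any alternative run, except that exchanging the LN229 names turns the 3 LN229 resistance calls by construction. However, the cytosolic median turned from -0.041 to 0.040 in U87 resistance without DMSO replicate 3 of U87-R, and in U87-R with STM2457 from -0.038 to 0.014 with equal totals and 0.021 without DMSO replicate 1. With the replicate block the members called numbered 1 and 8 in the U87 and LN229 resistance comparisons and 13 in U87 MG and 13 in U87-R with STM2457, and the differences numbered 10 (LN229 minus U87 MG), 12 (LN229-R minus U87-R) and 4 (resistance). All genes called with it were 1176 and 2600 for resistance and 4137 in U87 MG and 4796 in U87-R. In LN229 the like-numbered correlations did not all pass the limit set for pairing. There the block gave 19 members in place of 21, losing RARS1 and HARS1. Over all genes it gave 4456 of 17107 higher and 3988 lower, in place of 4474 and 4032. Over the 6 comparisons the block added 3 to 13 calls among 70 companion genes and lost 0. Without the variance trend 1 member was called in LN229 resistance, 0 in U87 MG and 1 in U87-R with STM2457. All genes called were then 396 and 951 for U87 and LN229 resistance, 1301 in U87 MG and 1372 in U87-R. Differences between the backgrounds numbered 2 and 2 without the trend. Over all genes these tests gave 1454 of 13887 higher and 869 lower, and 1182 of 13759 higher and 602 lower. Equal totals gave 7 members and medians of 0.194 (cytosolic) and -0.026 (mitochondrial) in LN229 resistance, 5 members in U87 MG, 6 in U87-R, 11 differences between LN229 and U87 MG and 4 for resistance. Equal upper quartiles gave 5 members in LN229 resistance, where 1597 of 17134 genes were called. With STM2457 they gave cytosolic and mitochondrial medians of -0.292 and -0.195 in LN229 and -0.285 and -0.186 in LN229-R. In U87 MG no filter gave 1 member, where 2029 of 28669 genes were called, and a filter at 50 gave 5, where 2251 of 12891 were. Calls were higher for 60.5% of called genes in LN229 resistance and 71.6% with equal totals, and for 57.9% and 68.6% in U87 MG; equal upper quartiles gave 60.2% and 48.6%, and with STM2457 45.5% in place of 52.6% in LN229 and 48.4% in place of 55.7% in LN229-R.

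Leaving out 1 library at a time gave 0 to 0 members in U87 resistance, 0 to 8 in LN229 resistance, 0 to 5 in U87 MG and 0 to 5 in U87-R, 15 to 22 in LN229 and 10 to 18 in LN229-R. All genes called ran from 315 to 607, 534 to 3262, 890 to 1803, 884 to 2217, 6591 to 8621 and 4364 to 6425 in that order. The cytosolic medians ran from -0.096 to 0.040, 0.105 to 0.170, -0.280 to -0.184, -0.066 to 0.021, -0.266 to -0.198 and -0.259 to -0.104. The mitochondrial medians ran from 0.015 to 0.084, -0.116 to -0.070, 0.132 to 0.204, 0.114 to 0.287, -0.161 to -0.086 and -0.179 to -0.079. Differences called numbered 0 to 0 within each family, 2 to 7 for LN229 minus U87 MG, 2 to 4 for LN229-R minus U87-R and 1 to 3 for resistance. Exchanging the LN229 names, chosen after seeing the data, turns the sign of the LN229 resistance comparison and gave 9 differences for LN229-R minus U87-R and 0 for resistance. Values rest on 3 libraries per group, and the read depth behind a normalized count is unknown.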
